A study of Jatropha curcas with 22 samples.

Results

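The comparison described here sets the effect of severe drought on root tips of Jatropha curcas, an oilseed shrub of the spurge family, against the effect of moderate drought on the same organ. For each gene model the log2 ratio of severely droughted to late watered root was taken, the log2 ratio of moderately droughted to early watered root was subtracted, and the difference of these differences was tested against 0. The gene models were those with at least 10 reads in at least 2 of the 8 root libraries concerned, which 24787 of 57437 deposited gene models met. Of these, 985 reached 10 reads in exactly 2 libraries, and a further 1625 models just outside the rule reached it in 1 library. The name of a gene model is its deposited identifier, and its function is the authors' deposited description.

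All 8 libraries came from seedlings of a strain labelled Cape Verde islands, grown in pots in a greenhouse and 36 days old when treatments began. The early control was kept watered and sampled at day 13, and moderate drought was 13 days without water. The late control was kept watered and carries a joint label of days 49 and 52, and severe drought was 49 days without water. Each group has 2 libraries. Root tips of at most 1 cm were brushed free of soil, pooled from 3 plants at day 13 and 6 plants at day 49, and the number of plants is not given for the late controls. The series' design speaks of a pair of accessions, of which the Cape Verde strain is analysed here, and its other libraries (12 of leaf and 2 of rewatered root, labelled day 52) serve below only as a reference. The labels do not state that libraries of a group were made from different plants, and p-values here therefore speak only of how far these libraries differ, which may be technical.

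A root tip under drought is known to slow its growth, to stiffen and seal its walls with lignin and suberin, and to build protective proteins such as late embryogenesis abundant (LEA) proteins and heat shock proteins as its cells lose water. Much of this is set in motion by abscisic acid (ABA), a hormone that accumulates in drying tissue. A gene can therefore respond to mild and to harsh drought in the same direction and by different amounts, or in opposite directions. Since the libraries are of bulk tissue, fewer cells of a type and less RNA per cell cannot be told apart for any gene below.

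The libraries held 40505308 to 61148792 reads on gene models. Levels are given as CPM, library-scaled reads (counts per library total, times a constant) with scaling by trimmed mean of M values (TMM), and compare libraries for 1 gene but not 1 gene with another. At these depths 3 reads, the limit that a count of 0 allows, equal 0.049 to 0.074 CPM before scaling, which covers counting error only. Late control libraries had reads on 40952 and 38267 gene models, against 31702 to 34405 in the other 6 libraries. Photosystem and antenna genes, markers of green tissue, summed to 183 to 398 CPM over the root libraries and to 15100 to 23600 CPM over the leaf libraries. All list sums in this paragraph were taken per library total, without TMM scaling. Of the photosystem list 16 of 41 tested members were higher in the difference (39%, against 11.5% of all tested) and 1 lower (2.44%, against 18.6%). The sum of the list was 269 to 376 CPM in the late controls and 202 to 250 under severe drought. Gene models with a bacterial type of description summed to 334 to 482 CPM in the early controls, 503 to 513 under moderate drought, 487 to 497 in the late controls and 362 to 381 under severe drought, and their part in any result was not tested. The 4 gene models described with a root hair name summed to 250 to 373 CPM in root and 210 to 277 CPM in leaf, and so did not separate the organs. In the first principal component of the 8 libraries (60.5% of the variance) the severe libraries lay at 154 and 159.1 and all others between -75.1 and -28.7. The second component (25.4%) ran from the early controls at 75.4 and 79.6, through severe drought at 15.6 and 18.9 and moderate drought at -28.4 and 9.5, to the late controls at -94.8 and -75.8.

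Drought had a different effect at 49 days than at 13 days on many gene models. The difference of differences was called for 7460 of 24787 (30.1%) in edgeR's quasi-likelihood test at a Benjamini-Hochberg adjusted p under 0.05, and for 10733 (43.3%) at an unadjusted p under 0.05. It was higher for 2849 (11.5%) and lower for 4611 (18.6%), where lower means that severe drought acted more downwards, or less upwards, than moderate drought. In 86.7% of the higher and 79.6% of the lower calls severe drought passed its own test and moderate drought did not, and the absolute log2 fold change was larger under severe drought in 90.1% and 85.1% of them. Severe drought on its own changed 11200 gene models (45.2%), and moderate drought 904 (3.65%), of which 696 were higher (2.81%) and 208 lower (0.839%). The moderate count was unsteady: it was 98 without moderate replicate 1, 5558 without early control replicate 1 and 3270 with DESeq2, and the shares above that use it rest on the 904. The scaling moved the split: with library totals in place of TMM 1731 were higher and 5713 lower, a share of 23.3% higher against 38.2%, with the median difference of all models at -0.34 in place of -0.05. With limma on the deposited RPKM values plus 1 the counts were 5404 higher and 3891 lower, or 58.1% higher, with the median at 0.11.

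Genes that moved one way at 13 days and the other at 49 days were mainly of 1 kind, up first and down later. Such opposite genes were counted where the difference was called and the log2 fold change was at least 1 in size on each day. There were 1258 gene models up then down (5.08% of those tested) and 207 down then up (0.835%). With no test, 5.68% and 1.67% of all models had log2 values of those signs and sizes. A call of the difference favours opposite signs by construction, and by sign alone 25.7% of all tested models were positive then negative and 22.6% negative then positive. When each day's own contrast also had to pass, 325 up then down models remained (1.31%) and 7 down then up (0.0282%). The 696 models called higher under moderate drought divided into 355 called lower under severe drought (51%, against 25.7% of all tested), 140 called higher (20.1%, against 19.5%) and 201 not called. The 208 called lower under moderate drought included 145 called lower again (69.7%, against 25.7%) and 15 called higher (7.21%, against 19.5%). Across all 24787 models the 2 effects, which share no library, had a Pearson r of -0.15 and a Spearman rho of -0.02, given as a description, since genes are not independent replicates.

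**Figure D1:**
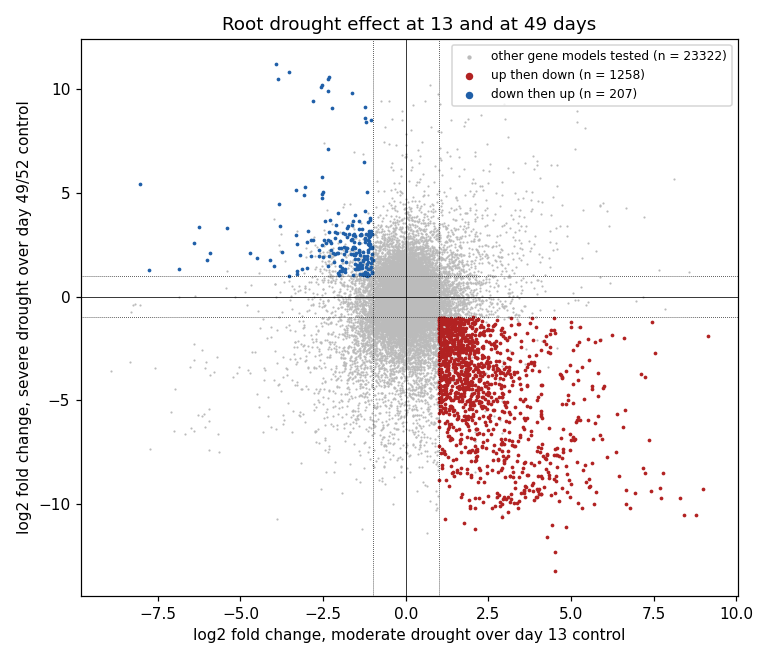
Each point is a gene model, with its log2 fold change under moderate drought on the x axis and under severe drought on the y axis, and dotted lines at 1 and -1. The 1258 up then down models (red, lower right) far outnumber the 207 down then up models (blue, upper left), and a few blue points at severe values near 10 are heat shock genes.

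The difference has a second reading, since it equals severe minus moderate drought with late minus early control taken away. In the up then down genes both terms moved. The late control lay above the early control, by the test, in 949 of 1258 (75.4%, against 15.1% of all tested models called higher in the late control), and severe drought lay below moderate drought in 920 (73.1%, against 27.8%). These shares share libraries with the rule that chose the genes and are descriptions. The control term was the larger in 579 genes (46%). The median level over the 1258 models was 0.939 CPM in the early control, 5.03 under moderate drought, 8.5 in the late control and 0.405 under severe drought. The late control was the highest group in 964 models and moderate drought in 294, and the lowest was severe drought in 845 and the early control in 413.

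Set against the early control in place of the late one, fewer of these genes were low under severe drought. Severe drought lay at least 1 log2 unit below the early control in 621 of 1258 (49.4%), and by the test it lay below it in 400 and above it in 132 (over all tested models this contrast was called for 55%, 29.1% lower and 25.8% higher). With the day 13 control used for both days 649 models were up then down, 607 of them among the 1258. Of the 1258 models 73 were read almost solely in the late controls, with under 10 reads in each of the other 6, and 1185 remain without them. Replicates also leaned one way: replicate 1 of moderate drought lay above replicate 2 in 1037 of the 1258 models (82.4%, against 50.9% of all tested models). Without moderate replicate 1 the count was 948, and without replicate 2 it was 1326. The part of plant age, of the joint label of the late controls and of this spread in the result was not tested.

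**Figure D2:**
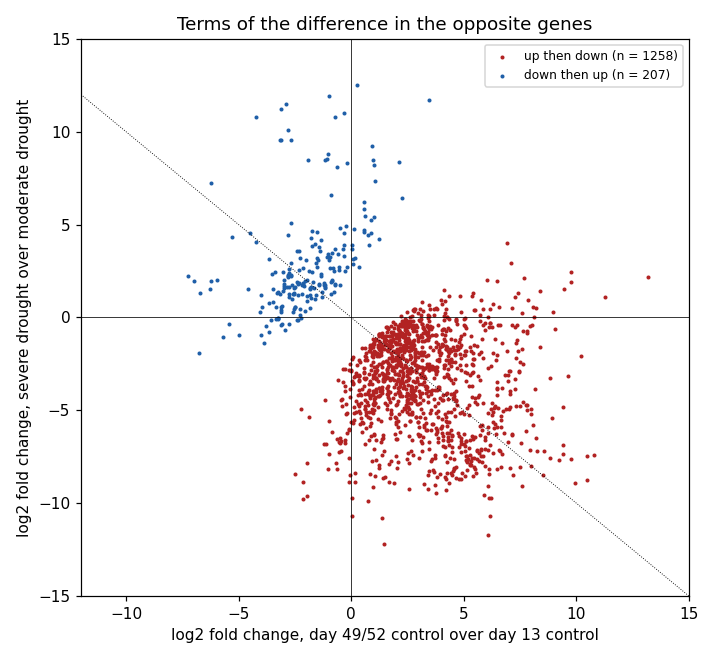
For each opposite gene the x axis gives the log2 fold change of late over early control and the y axis that of severe over moderate drought, and along the dotted diagonal the terms are equal in size and opposite. Most up then down models (red) lie to the right of 0 and below 0, with the control term larger in 579 of 1258, and most down then up models (blue) lie to the left and above.

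Cysteine proteases of the papain type, enzymes that degrade proteins in the vacuole and outside the cell, were among the up then down genes. Of 30 tested gene models described as cysteine proteases or proteinases, 14 were lower in the difference and 0 higher (against 18.6% and 11.5% of all tested). Of the 30, 8 were up then down (against 5.08%), and all 8 also passed on each day alone (against 1.31%). Of those named, Jcr4S02201.30 had 0.778 and 1.65 CPM in the early controls, 203 and 61.4 under moderate drought, 369 and 507 in the late controls and 0.416 and 0.328 under severe drought. Moderate drought and the late controls were high, the other groups were low, and no library of a high group overlapped one of a low group. Its fitted log2 fold change was 6.79 (SE 0.72, edgeR adjusted p = 0.016) at 13 days and -10.19 (SE 0.84, adjusted p = 0.00033) at 49 days. The difference was -16.99 (SE 1.11, adjusted p = 0.00034).

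The neighbouring model by number, Jcr4S02201.40, had 0.0949 and 0.42 CPM in the early controls, 73.9 and 27.3 under moderate drought, 164 and 254 in the late controls and 0.269 and 0.235 under severe drought. Jcr4S00250.10 rose from 0.19 and 0.476 CPM to 86.8 and 54.1 at 13 days and stood at 189 and 243 against 0.538 and 0.657 at 49 days. Jcr4S06821.10 rose from 1.33 and 1.06 CPM to 152 and 45, and fell from 272 and 383 in the late controls to 1.47 and 2.14 under severe drought. The severe levels of these 4 proteases thus lay nearer to their early control levels than to those of the late controls. Severe against early control gave log2 values of -1.67 to 0.92, none of which passed the test. That does not show equal levels, and only in Jcr4S02201.40 did the libraries of the severe and early control groups overlap. The other named cysteine proteases (Jcr4S00250.20, Jcr4S09311.10 and Jcr4S03144.30) were likewise high under moderate drought and in the late controls, at lower levels. Jcr4S03144.30 had 29.7 and 33.5 CPM in the late controls, and its difference of -13.68 (SE 0.37, adjusted p = 7.3e-05) had the smallest p of the protease list. Its severe level lay below the early control by the test (log2 -1.78, adjusted p = 0.0037), while Jcr4S00250.20 (-0.65) and Jcr4S09311.10 (0.06) missed it. Members such as Jcr4S00250.10 and Jcr4S00250.20, or Jcr4S02201.30 and Jcr4S02201.40, may be close copies between which short reads cannot be divided with certainty, so their separate levels are uncertain.

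Some secreted proteins of defence and the cell wall had this course too, those named here among them. Kiwellin Jcr4S01193.80, of a family of secreted cysteine-rich proteins first found in kiwifruit, had 0 and 0.168 CPM in the early controls and 29.9 and 19.5 under moderate drought. At the later time it had 62 and 81.7 in the late controls and 0.0245 and 0.0704 under severe drought, where 1 and 3 reads were counted. Its difference of -18.89 (SE 1.08, adjusted p = 0.00028) was the most negative of the genes that qualified to be named. Of 5 tested kiwellin models 4 were up then down, and of 21 chitinase models 8 (against 5.08% of all tested). In each set 2 also passed on each day alone (against 1.31%).

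The model Jcr4S00216.20, described as containing an EG45-like domain (a domain related to expansins, which loosen walls), had 0.019 and 0.196 CPM in the early controls and 42.7 and 17.7 under moderate drought, then 104 and 175 in the late controls and 0.147 and 0.188 under severe drought. Chitinase Jcr4S00022.40, an enzyme that cuts the chitin of fungal walls, had 0.0949 and 0.196, 11.5 and 13.2, 32.7 and 37.1, and 0.049 and 0.117 CPM in the same order of groups. In each of these genes the ranges of the libraries stood apart between drought and control on both days. The chitinase rose by a log2 of 6.45 (SE 0.36, adjusted p = 0.0027) at 13 days and fell by 8.66 (SE 0.39, adjusted p = 9.5e-05) at 49 days. Its neighbour by number, the acidic endochitinase Jcr4S00022.50, rose from 2.2 and 4.26 to 36.3 and 27.4 CPM and fell from 90.9 and 128 to 0.22 and 0.141. The defence list, which also holds pathogenesis-related proteins, had 23 of 61 tested members lower in the difference (37.7%, against 18.6% of all tested). Higher were 3 (4.92%, against 11.5%). Of the 61, 10 were up then down (16.4%, against 5.08%), 4 of them also by each day's own test. Pathogenesis-related protein Jcr4S07371.10 rose from 0.133 and 1.06 CPM to 34.6 and 17 and fell from 45.2 and 68.5 to 0.049 and 0.141.

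The CASP-like protein Jcr4S03697.20, of a family that includes the scaffold proteins of the Casparian strip, the lignin seal around the root's conducting core, had no read in either severe library. Its levels were 0.0949 and 0.672 CPM in the early controls, 10.9 and 5.54 under moderate drought, and 18.5 and 30.1 in the late controls. Against a floor of 3 reads per library, severe drought was at least 338-fold lower than the late control. An undescribed model, Jcr4S17467.10, was named as the leading one of its kind: it rose from 0.019 and 0.028 CPM, 1 read per library, to 14.4 and 11.3, and fell from 36.9 and 53.9 to 0.0979 and 0.0469. Fitted log2 values of genes with so few reads in a group depend on the small prior count of the fit.

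**Figure D3:**
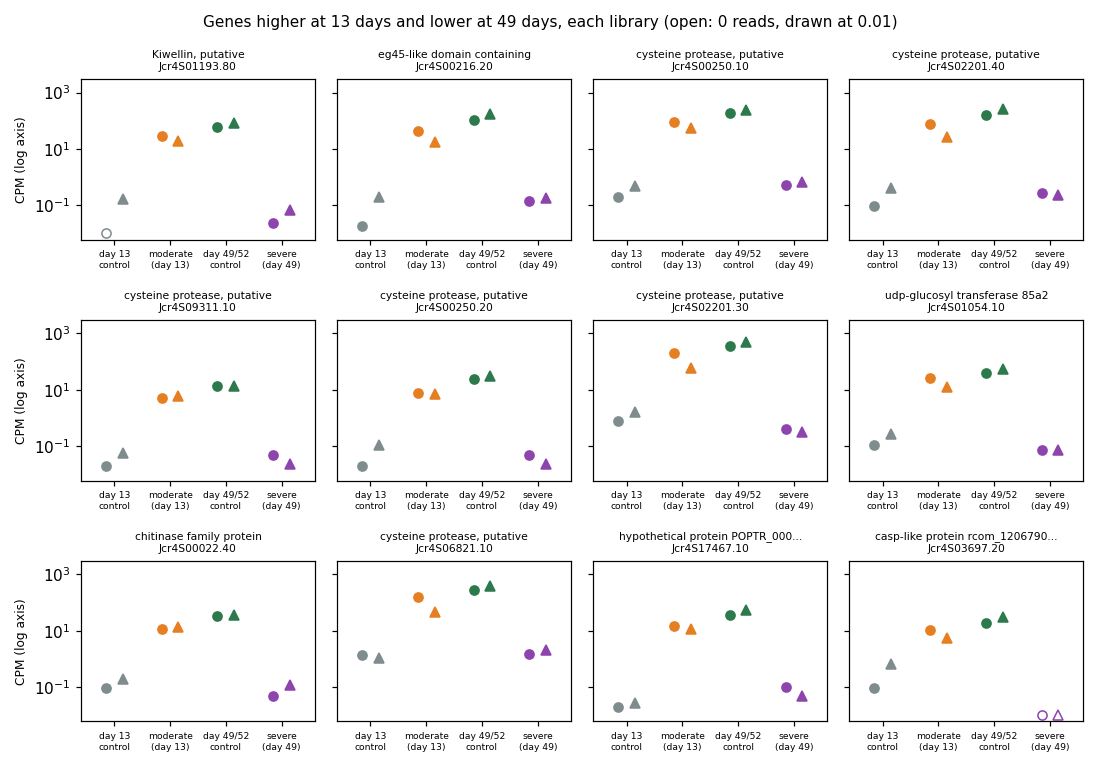
Levels in CPM (log axis) of the 10 described up then down genes that ranked first, the leading undescribed model and the CASP-like gene, with circles for replicate 1 and triangles for replicate 2, open where no read was counted. In all 12 panels moderate drought and the late control are high and the early control and severe drought are low.

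Of the 47 gene lists, those of cytochrome P450s and of terpene synthesis held the most up then down genes. Cytochrome P450s, heme enzymes that oxidise many plant metabolites, had 120 of 193 tested members lower in the difference (62.2%, against 18.6% of all tested). Higher were 7 (3.63%, against 11.5%). Of the 193, 66 were up then down (34.2%, against 5.08%), 23 of them also by each day's own test, and the list's median difference was -3.28 log2 (-0.05 over all tested). On the log2 scale of RPKM plus 1 that median was -0.93, and on RPKM plus 0.1 it was -1.19, where low genes count for less. P450 Jcr4S14800.10 had 11.8 and 11.1 CPM in the early controls, 44.5 and 37 under moderate drought, 29.2 and 30.5 in the late controls and 0.367 and 0.493 under severe drought. Moderate drought was its highest group, and all 4 groups stood apart. It rose 3.56-fold at 13 days and fell 69-fold at 49 days, with a difference of -7.94 (SE 0.28, adjusted p = 9.5e-05). Another P450, Jcr4S06992.20, rose from 10.7 and 7.11 CPM to 139 and 68.4 and fell from 227 and 391 to 1.62 and 0.422.

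Terpene synthesis genes had 31 of 58 tested members lower (53.4%, against 18.6% of all tested) and 0 higher (against 11.5%). Of the 58, 25 were up then down (43.1%, against 5.08%), and 7 also passed on each day alone (against 1.31%). The list's median difference was -4.75, or -3.34 with groups of 0 reads set to the floor. It was only -0.47 and -0.73 on RPKM plus 1 and plus 0.1. Casbene synthase makes the ring skeleton of the diterpenes for which the spurge family is known. Of its 10 tested models 8 were up then down (against 5.08% of all tested), and 3 also passed on each day alone (against 1.31%). Jcr4S01081.30 had 88.2 and 79.7 CPM in the early controls, 233 and 400 under moderate drought, 174 and 162 in the late controls and 14.3 and 10 under severe drought. The casbene synthase Jcr4S25728.10 had 7.7 and 7.76, 29.4 and 71.2, 13.6 and 10.5, and 0.857 and 0.727. In contrast to the proteases, these 2 genes were highest under moderate drought, with late controls at most 1 log2 unit above the early ones (1.00, adjusted p = 0.037, and 0.64, adjusted p = 0.24). Their severe levels lay below those of the early controls in each library. Squalene monooxygenase, which oxidises squalene on the way to sterols and triterpenes, was represented by Jcr4S00993.70, which rose from 0.455 and 0.56 CPM to 4.79 and 3.07 and fell from 7.66 and 6.13 to 0.0734 and 0.0235, 3 reads and 1 read.

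Genes of flavonoid synthesis had 52 of 112 members lower (46.4%, against 18.6% of all tested) and 6 higher (5.36%, against 11.5%). Of the 112, 18 were up then down (16.1%, against 5.08%), 5 of them also by each day's own test. The isoflavone 2'-hydroxylase-like model Jcr4S00310.20 had 13.5 and 10.9 CPM in the early controls, 27.2 and 35.6 under moderate drought, 40 and 42.6 in the late controls and 0.122 and 0.164 under severe drought, a difference of -9.5 (SE 0.35, adjusted p = 0.00011). Glucosyltransferases, which attach sugar to hormones and metabolites, had 57 of 128 lower (44.5%, against 18.6%) and 9 higher (7.03%, against 11.5%). Of the 128, 16 were up then down (12.5%, against 5.08%), 6 of them also by each day's own test. UDP-glucosyl transferase Jcr4S01054.10 had 0.114 and 0.28, 25.2 and 12.5, 39.1 and 56.3, and 0.0734 and 0.0704 CPM, with 3 reads in each severe library. The P450, terpene, flavonoid and glucosyltransferase lists thus each had a larger share of lower calls than the tested models as a whole, though the families overlap in part and were chosen with earlier results of these data known. With limma on RPKM plus 1, 36 of 193 P450s, 13 of 58 terpene and 10 of 86 lignin genes were up then down. So were 7 of 112 flavonoid and 9 of 128 glucosyltransferase genes, and 477 of all 24787 tested models (1258 in the main fit).

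The secondary wall and lignin list had 46 of 86 tested members lower (53.5%, against 18.6% of all tested) and 2 higher (2.33%, against 11.5%). Of the 86, 18 were up then down (20.9%, against 5.08%), 4 of them also by each day's own test. The list's median was -1.91, or -1.51 with the floor, and -0.94 and -1.13 on RPKM plus 1 and plus 0.1. Laccases, copper enzymes that polymerise lignin, had 17 of 21 models lower (against 18.6% of all tested) and 10 up then down (against 5.08%). Of the 21, 3 were up then down also by each day's own test (against 1.31%). Laccase Jcr4S00499.40 rose from 7.95 and 10.1 CPM to 37.4 and 25.7 at 13 days, and had 14.2 and 24.8 in the late controls against 0.245 and 0.399 under severe drought. Laccase Jcr4S00972.20 rose from 7.31 and 4.12 to 30.7 and 18.7 and fell from 41.4 and 75.4 to 4.8 and 3.78. Caffeic acid O-methyltransferase Jcr4S06671.20, an enzyme of lignin building blocks, had 10.2 and 8.62, 18.5 and 17.9, 26.2 and 26.6, and 0.612 and 0.305 CPM. Its level at 13 days missed the test (adjusted p = 0.076), and its fall at 49 days passed (log2 -5.84, SE 0.31, adjusted p = 0.00012). GDSL esterases, lipid-acting enzymes of which some assemble cutin and suberin, included Jcr4S03565.20, which rose from 0.436 and 4.84 CPM to 173 and 91.7 and fell from 300 and 457 to 0.392 and 0.328.

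Fasciclin-like arabinogalactan proteins, cell surface proteins of which some mark secondary wall formation, were few. Of 17 tested members 6 were lower (35.3%, against 18.6% of all tested) and 1 higher (5.88%, against 11.5%). Of the 17, 5 were up then down (29.4%, against 5.08%), 1 of them also by each day's own test. Jcr4S06525.30 had 1 read and 0 reads in the early controls, 14.2 and 1.42 CPM under moderate drought, 106 and 162 in the late controls and 37 and 33.9 under severe drought. Its severe level was above that of moderate drought, so its opposite sign rests on the late control, and its own severe contrast missed the test (log2 -1.92, SE 0.85, adjusted p = 0.11).

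Hormone genes with this course included enzymes that make and that remove hormones. Gibberellins promote elongation, and their list had 30 of 59 members lower in the difference (50.8%, against 18.6% of all tested) and 2 higher (3.39%, against 11.5%). Of the 59, 7 were up then down (11.9%, against 5.08%), 3 of them also by each day's own test. Gibberellin 20 oxidase Jcr4S00062.170, an enzyme of late gibberellin synthesis, had 103 and 81.7 CPM in the early controls, 416 and 310 under moderate drought, 224 and 379 in the late controls and 0.734 and 0.798 under severe drought. It rose 3.92-fold at 13 days (adjusted p = 0.027) and fell 392-fold at 49 days (adjusted p = 9.6e-05). Gibberellin 3-beta-hydroxylase Jcr4S03817.70, of the step that yields active gibberellin, rose from 14.1 in both libraries to 47.8 and 41.2 CPM and fell from 15 and 29.3 to 1.22 and 1.41.

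ABA 8'-hydroxylases, which break down ABA, diverged among themselves. Jcr4S00544.20 had 0.721 and 5.15 CPM in the early controls, 59.6 and 38 under moderate drought, 83.6 and 150 in the late controls and 3.13 and 1.92 under severe drought, and its contrast at 13 days missed the test (adjusted p = 0.052). Jcr4S01285.10 was raised at 13 days, from 0.664 and 0.196 to 10.8 and 3.28 CPM (adjusted p = 0.04), and at 49 days had 5.22 and 7.75 in the late controls and 7.64 and 6.71 under severe drought (adjusted p = 0.86). Jcr4S05715.10 lay at 0.0659 to 0.186 CPM in the other 3 groups and at 10.3 and 7.13 under severe drought. That gene had the opposite sign of difference, 6.02 (SE 0.72, adjusted p = 0.0019). Jcr4S01272.40, of the carotenoid cleavage dioxygenases, the family that holds the committing enzyme of ABA synthesis, was lower in the difference. The description of this model names the family and does not say that it is that enzyme. It had 140 and 123 CPM in the early controls and 59.8 and 76.3 under moderate drought. At the later time it had 55.1 and 102 in the late controls and 0.294 and 0.235 under severe drought. Its 13 day change missed the test (log2 -0.95, adjusted p = 0.11), and at 49 days it fell 295-fold (adjusted p = 0.00012). Of the 12 tested members of the ABA synthesis list, which counts Jcr4S01272.40, 8 were lower in the difference (66.7%, against 18.6% of all tested). Higher was 1 (8.33%, against 11.5%). At 13 days 3 of the 12 were higher and 0 lower (against 2.81% and 0.839%). At 49 days 4 were higher and 6 lower (against 19.5% and 25.7%). Set against the early control, severe drought was higher in 6 and lower in 4 (against 25.8% and 29.1%). Of 5 breakdown genes 2 were lower in the difference (40%, against 18.6%) and 1 higher (20%, against 11.5%).

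Transport genes were also found among the up then down models. The tonoplast intrinsic protein Jcr4S16114.20, an aquaporin of the vacuole membrane, had 115 and 87.6 CPM in the early controls, 478 and 531 under moderate drought, 35.4 and 65.4 in the late controls and 1.52 and 1.99 under severe drought. Here the late control lay below the early one, so the opposite course did not depend on a raised late control. It rose 4.98-fold (adjusted p = 0.025) and fell 28.6-fold (adjusted p = 0.00026). By contrast aquaporin TIP2-3 Jcr4S05431.20, at 3100 and 3750 CPM in the early controls and 2250 and 3030 under moderate drought, had 301 and 351 in the late controls and 10.3 and 11.4 under severe drought. Over the aquaporin list 8 of 29 members were lower (27.6%, against 18.6% of all tested) and 5 higher (17.2%, against 11.5%).

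Nitrate and ammonium transporters had 20 of 41 members lower (48.8%, against 18.6% of all tested) and 3 higher (7.32%, against 11.5%). Of the 41, 7 were up then down (17.1%, against 5.08%), of which 0 passed each day's own test. The ammonium transporter Jcr4S02860.10 had a wide spread: 0.436 and 32.9 CPM in the early controls, 127 and 86.5 under moderate drought, 273 and 488 in the late controls and 0.318 and 0.352 under severe drought. As a ratio, the early control libraries differed more from each other than replicate 2 did from moderate drought, and the 13 day contrast missed the test (log2 2.69, SE 1.38, adjusted p = 0.28). Nitrate transporter Jcr4S01757.20 had the same spread, with 0.114 and 6.3 CPM in the early controls.

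**Figure D4:**
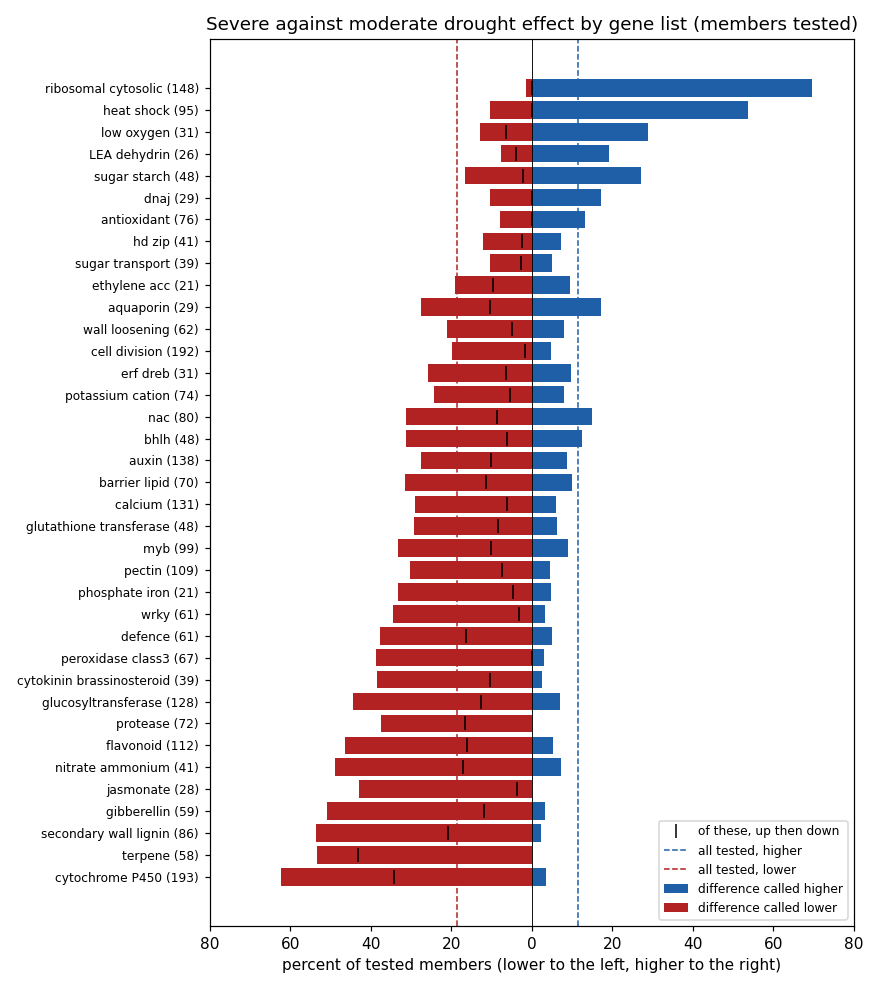
For each gene list with at least 20 tested members (number in brackets), bars give the percent of members whose difference was called lower (red, left) or higher (blue, right), the black mark the percent up then down, and dashed lines the percent of all tested models, 18.6% lower and 11.5% higher. Cytochrome P450s reach 62.2% lower, and cytosolic ribosomal proteins 69.6% and heat shock proteins 53.7% higher.

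The down then up genes were fewer than the up then down genes. Over the 207 models the median level was 0.948 CPM in the early control, 0.238 under moderate drought, 0.256 in the late control and 1.43 under severe drought. Their number depended on single libraries more than that of the up then down genes: it was 523 without early control replicate 1 and 121 without replicate 2, and 83 to 117 without any 1 of moderate replicate 1 and the late control and severe libraries. Replicate 2 of the early control lay above replicate 1 in most of them, since replicate 1 was the higher in 51 of 207 (24.6%, against 50.8% of all tested models). Severe drought lay above the early control by at least 1 log2 unit in 77 (37.2%).

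The 7 models that passed on each day alone were named after their values were seen, apart from those the ranking named. The nodulin family protein Jcr4S01891.50, named for likeness to plant proteins of legume nodules, had 31.7 and 45.1 CPM in the early controls, 6.83 and 8.84 under moderate drought, 6.86 and 5.32 in the late controls and 25.9 and 51 under severe drought. Another nodulin family protein, Jcr4S15472.10, had 11.7 and 15.3, 1.84 and 2.86, 2.2 and 1.69, and 7.88 and 13.8. Both fell at 13 days and rose at 49 days with no overlap of libraries, and under severe drought they did not pass the test against the early control (log2 0.00 and -0.31). Their differences were 4.95 (SE 0.52, adjusted p = 0.0012) and 4.99 (SE 0.52, adjusted p = 0.0012), and reads may be divided between them with error. Over the 40 tested models described with the word nodulin 11 were lower in the difference (against 18.6% of all tested) and 6 higher (against 11.5%). Of the 40, 4 were up then down (against 5.08%), 0 of the 4 by each day's own test.

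The model with F-box and WD40 domains, Jcr4S00114.140, of a kind found in proteins that mark others for degradation, had 21.2 and 17.3 CPM in the early controls, 7.81 and 7.4 under moderate drought, 8.58 and 9.89 in the late controls and 71.8 and 70.4 under severe drought. It fell 2.53-fold (adjusted p = 0.017) and rose 7.7-fold (adjusted p = 0.00012), and was also above the early control under severe drought (log2 1.88, adjusted p = 0.00023). The undescribed model Jcr4S00167.150 fell from 133 and 91.9 to 52 and 40 CPM and rose from 128 and 154 to 347 and 256, and of the 7 it had the smallest difference between late and early control (log2 0.33, adjusted p = 0.36). The leucine-rich repeat model Jcr4S00125.40 fell from 7.38 and 7.64 to 3.59 and 3.05 CPM and rose from 5.64 and 4.9 to 10.1 and 12.4. The transcription factor bHLH61-like model Jcr4S15742.10 had 5.12 and 17, 0.489 and 0.35, 1.03 and 0.703, and 4.6 and 2.96 CPM. The last, the Skp2-like Jcr4S00911.90, stayed low, at 0.132 to 1.42 CPM over the 8 libraries, with a difference of 3.51 (SE 0.55, adjusted p = 0.005).

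Small heat shock proteins, chaperones that hold unfolding proteins in solution, filled the next places of the ranking. The class I small heat shock protein Jcr4S01511.10 had 0.38 and 9.52 CPM in the early controls, 0.32 and 0.509 under moderate drought, 0.572 and 0.549 in the late controls and 907 and 1070 under severe drought. The severe libraries stood alone, and at 13 days it was early control replicate 2 that stood apart. Its log2 fold change was -3.54 (SE 1.22, adjusted p = 0.15) at 13 days and 10.78 (SE 1.54, adjusted p = 0.0021) at 49 days. Without early control replicate 2 the 13 day value was 0.13 and the difference 10.65 (adjusted p = 0.00088), so its negative sign at 13 days rested on that library. Jcr4S03340.10, at 462 and 658 CPM under severe drought, likewise went from -3.87 to 0.05 at 13 days without that library. Over the 95 tested heat shock members 11 were down then up (against 0.835% of all tested) and 51 were higher in the difference (against 11.5%). At 13 days 13 of the 95 were lower by at least 1 log2 unit, and 5 without that library.

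Jcr4S02800.20, another cytosolic class I member, had 0.19 and 2.72 CPM in the early controls, 0.0506 and 0.127 under moderate drought, 0.0369 and 0.11 in the late controls and 150 and 187 under severe drought. Jcr4S08080.30 had 0.0759 and 0.336, 0.0337 and 0.0159, 0.148 and 0.308, and 123 and 191. The moderate contrasts of both missed the test (adjusted p = 0.12 and 0.16). Alcohol dehydrogenase Jcr4S17188.10, an enzyme of fermentation, was ranked here on 3 reads in 1 early control library and 0 in the other and in both moderate ones. For this gene no fold is given at 13 days, and at 49 days it rose from 0.461 and 0.33 CPM to 5.73 and 11.7 (adjusted p = 0.0026).

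**Figure D5:**
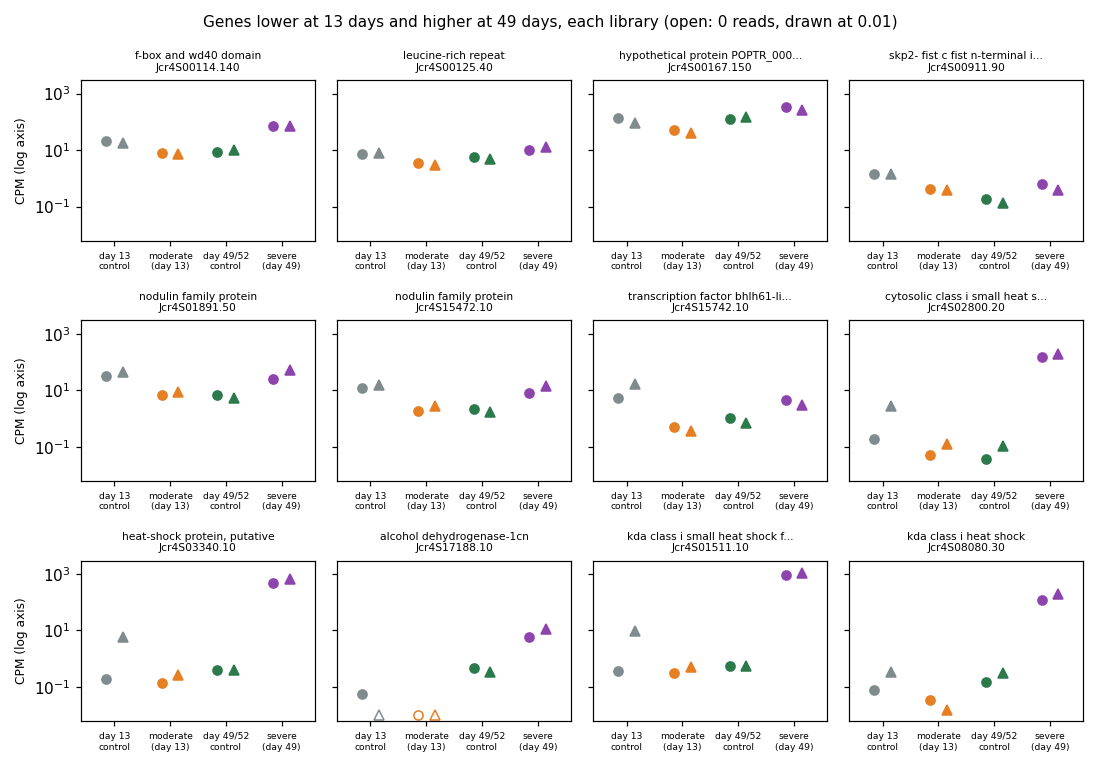
Levels in CPM (log axis) of the 7 models that passed on each day and of the 5 ranked next, with circles for replicate 1 and triangles for replicate 2, open where no read was counted. In the 4 heat shock panels the severe libraries reach 123 to 1070 CPM, and in each of them the triangle of the early control is the highest point outside severe drought.

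Most higher differences belonged to genes whose severe contrast passed the test and whose moderate contrast did not, and heat shock proteins were among them. In the heat shock list 51 of 95 tested members were higher (53.7%, against 11.5% of all tested) and 10 lower (10.5%, against 18.6%). The list's median difference was 2.34 (1.39 and 1.58 on RPKM plus 1 and plus 0.1). The class IV member Jcr4S01017.50 had 1.73 and 3.19 CPM in the early controls, 1.97 and 2.5 under moderate drought, 3.27 and 3.01 in the late controls and 946 and 1370 under severe drought. The class I member Jcr4S03109.50 had 1.06 and 0.84, 1.47 and 1.02, 1.22 and 1.27, and 151 and 183. The controls and moderate libraries of these genes overlapped, and their difference (8.65, SE 0.51, and 6.69, SE 0.34) stood beside 13 day contrasts that missed the test (adjusted p = 0.84 and 0.37). The DnaJ homolog Jcr4S00126.130, a co-chaperone of Hsp70, had 19.2 CPM in both early controls and 32.5 and 23.2 under moderate drought. It had 14.9 and 14.5 in the late controls and 556 and 457 under severe drought. Over the DnaJ list 5 of 29 members were higher (17.2%, against 11.5% of all tested) and 3 lower (10.3%, against 18.6%). The median difference of that list was -0.18.

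Among LEA proteins and dehydrins 5 of 26 were higher (19.2%, against 11.5% of all tested) and 2 lower (7.69%, against 18.6%). LEA protein Jcr4S00616.50 had 320 and 698 CPM in the early controls, 854 and 339 under moderate drought, 499 and 460 in the late controls and 14700 and 11600 under severe drought, a difference of 4.55 (SE 0.75, adjusted p = 0.0058). LEA protein Jcr4S05404.40 had 2.6 and 1.09, 5.84 and 5.14, 0.609 and 0.439, and 91 and 56.6. At 13 days its libraries stood above the control without passing the test (log2 1.55, adjusted p = 0.086). Another member, the LEA hydroxyproline-rich glycoprotein Jcr4S11124.20, was up then down instead. It had 0.019 and 1.34 CPM in the early controls, 3.05 and 2.02 under moderate drought, 7.75 and 14.3 in the late controls and 0.049 and 0 under severe drought, where 2 reads and 0 were counted. Its 13 day contrast missed the test (adjusted p = 0.32), and its severe contrast passed (adjusted p = 0.007).

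Galactinol-sucrose galactosyltransferase Jcr4S00009.110, which makes the protective sugar raffinose, rose under severe drought from 55.9 and 64.5 to 863 and 715 CPM and had 39.8 and 35.9 against 44.9 and 41.6 at 13 days (difference 3.52, SE 0.24, adjusted p = 0.00034). Ascorbate peroxidase Jcr4S00717.110, which removes hydrogen peroxide, rose from 5.98 and 7.32 to 300 and 313 CPM and had 9.81 and 10.9 against 13.9 and 12.1 (difference 5.2, SE 0.24, adjusted p = 0.00018). Of the antioxidant list 10 of 76 members were higher (13.2%, against 11.5% of all tested) and 6 lower (7.89%, against 18.6%). Zeaxanthin epoxidase-like Jcr4S00215.20, of an early step of ABA synthesis, rose from 6.59 and 6.61 to 57.2 and 57.7 CPM. Its 13 day change from 5.64 and 3.98 to 9.12 and 8.27 missed the test (adjusted p = 0.058).

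Most lower differences likewise belonged to genes called under severe drought alone. Glutathione transferase-like Jcr4S08266.70, of a family that conjugates toxic compounds, had 133 and 73.9 CPM in the early controls, 94.4 and 94.8 under moderate drought, 82.7 and 136 in the late controls and 0.269 and 0.352 under severe drought. The auxin-induced 5NG4-like Jcr4S03936.10 had 59.9 and 41.7, 74.4 and 87.5, 60 and 62.9, and 1.37 and 1.53. Severe drought lay apart from the other 6 libraries in both, and the differences were -8.32 (SE 0.56, adjusted p = 0.00034) and -6.08 (SE 0.31, adjusted p = 0.00023). WRKY transcription factor Jcr4S00562.120, at 200 to 253 CPM in the other 6 libraries, had 33.2 and 31.4 under severe drought. Hexose transporter Jcr4S00105.130, which carries sugar into cells, had 388 and 632, 189 and 225, 373 and 372, and 16.3 and 13.7 CPM. It fell on both days and by more at 49 days (log2 -1.3, adjusted p = 0.045, and -4.63, adjusted p = 0.00016).

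Class III peroxidases, secreted enzymes that act on wall phenolics, had 26 of 67 members lower (38.8%, against 18.6% of all tested). They had 2 higher (2.99%, against 11.5%) and 0 up then down (against 5.08%). Their median difference was -1.63, but -0.1 and -0.17 on RPKM plus 1 and plus 0.1. At 13 days 9 of the 67 were lower (0.839% of all tested were) and 0 higher. Peroxidase 3, Jcr4S03305.20, had 420 and 518 CPM in the early controls, 456 and 522 under moderate drought, 284 and 296 in the late controls and 67 and 69.2 under severe drought. The peroxidases thus differed from laccases in lacking an up then down member, which is a count and was not tested.

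Cytosolic ribosomal proteins, the protein part of the ribosome, had the largest share of higher differences of the lists with at least 20 tested members. Of 148 members 103 were higher (69.6%, against 11.5% of all tested) and 2 lower (1.35%, against 18.6%). The median was 1.40 (0.67 and 0.70 on RPKM plus 1 and plus 0.1). Late controls were below early controls in 113 of 148 members (median -1.03), and in 15.6% of all tested. Severe drought lay above the late control in 93 members (median 0.90), and in 19.5% of all tested. Against the early control severe drought was higher in 12 and lower in 14 (median -0.11), and in 25.8% and 29.1% of all tested. Jcr4S01963.10, of the small subunit, had 45 and 61.3 CPM in the early controls, 37.6 and 41.7 under moderate drought, 27 and 23.2 in the late controls and 77.8 and 74.2 under severe drought. The large subunit protein L24 model Jcr4S00028.80 had 62 and 81, 44.8 and 57.6, 36 and 33.3, and 102 and 102. The count of higher members fell well below 103 without either late control library, either severe library or moderate replicate 1. Over all tested models the count of higher differences also fell without late control replicate 2.

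Other genes kept 1 direction on both days, 140 called higher (0.565% of those tested) and 145 called lower (0.585%). Named after their values were seen, the homeobox-leucine zipper gene Jcr4S00108.20, of a transcription factor family with many water stress members, had 0.417 and 0.196 CPM in the early controls, 18.4 and 4.04 under moderate drought, 1.18 and 1.01 in the late controls and 165 and 143 under severe drought. The late seed maturation protein Jcr4S08363.20 had 0.664 and 0.728, 24.6 and 4.85, 1.77 and 1.8, and 192 and 97. Both rose on both days, and their differences of 2.01 (SE 1.06, adjusted p = 0.19) and 1.94 (SE 1.06, adjusted p = 0.21) missed the test. Moderate replicate 1 lay well above replicate 2 in each of them. Among genes lower on both days, the lipid binding model Jcr4S00971.120 had 397 and 2310 CPM in the early controls, 1.52 and 4.06 under moderate drought, 8.6 and 3.95 in the late controls and 0.612 and 0.422 under severe drought. Its difference of 5.32 (SE 1.37, adjusted p = 0.027) was higher, with a larger fall at 13 days (log2 -8.92) than at 49 days (log2 -3.6).

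Rewatered root tips, labelled day 52, gave a further reading of the opposite genes. Rewatered levels came from a TMM scaling of all 10 root libraries, and levels of the other groups from that of the 8. Over the 1258 up then down models the median rewatered level was 1.61 CPM, between severe drought (0.405) and the late control (8.5). By model the rewatered mean lay between those of severe drought and late control in 918 (73%). On the log2 scale it was nearest to the early control in 627, to severe drought in 269, to moderate drought in 242 and to the late control in 120. The rewatered libraries differed from each other: replicate 1 lay above replicate 2 in 1041 of 1258 models (82.8%, against 50.2% of all tested). Cysteine protease Jcr4S02201.30 had 23.3 and 0.511 CPM and kiwellin Jcr4S01193.80 had 6.59 and 0.128. Gibberellin 20 oxidase Jcr4S00062.170, in contrast, had 359 and 324, within the ranges of both moderate drought and the late controls, and the small heat shock protein Jcr4S01511.10 had 0.367 and 0.785, near the late controls.

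Few leaf models had an opposite course at all: 48 were up then down and 134 down then up. Such a course needs an effect at 13 days, and the models changed in leaf at 13 days were not counted here. By the same rule 23053 models were tested in leaf, where the difference was called for 6158 (26.7%), 2510 higher and 3648 lower (15.8%). Of the 1258 up then down models of root 711 were tested in leaf. There 160 were called lower (22.5%, against 15.8% of all leaf models) and 62 higher (8.72%, against 10.9%). Of the 711, 8 were up then down in leaf (1.13%, against 0.208% of all leaf models). Of the 207 down then up models 161 were tested, 28 were called higher (17.4%, against 10.9% of all leaf models), 23 lower (14.3%, against 15.8%) and 7 were down then up (4.35%, against 0.581% of all leaf models). The nodulin family protein Jcr4S01891.50 was 1 of the 28: its leaf means were 34.5 CPM in the early control, 30.4 under moderate drought, 40.3 in the late control and 253 under severe drought. In leaf its change at 13 days was -0.18, and its leaf difference was 2.83 (adjusted p = 0.0013).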

How the data were processed

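The authors deposited read counts per gene model, and a second table named as normalised RPKM (reads per kilobase of gene model and per library size), for 22 libraries of root and leaf. Per the labels' protocols, RNA with integrity numbers of 8.3 to 9.9 (400 ng) was made into TruSeq v2 libraries, which keep no strand, and read as 50 bp single ends. Aligner, counter and genome build: not given in the sources used here. In the deposited RPKM table the lowest value is 1 and sorted columns are nearly alike, so it served only in alternatives. The counts of the 8 root libraries were scaled by TMM and fitted with edgeR 4.0.16 (robust quasi-likelihood, R 4.3.3) with 1 mean per group, and all contrasts were taken from that fit with p-values adjusted over 24787 models. Alternatives used DESeq2 1.42.0, limma 3.58.1, other scalings, filters and thresholds, and each library left out. Opposite genes needed a called difference and a log2 of at least 1 on each day. Each SE was worked back from the test, as the absolute log2 value divided by the square root of its F statistic. It is not an error estimated by the fit itself. Where a group has few reads it depends, as the log2 value does, on the prior count.

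Genes were named by rank: described models with at least 5 CPM in both libraries of a group, the 10 leading opposite genes each way by the smaller of the day effects, the 5 largest differences each way, and the called member of each list with the smallest p. Further list members, the genes called one way on both days and the remaining strict down then up models were chosen after their values were seen. The members, the lists (patterns on the deposited descriptions) and the rule were chosen with earlier results of these data known. Replicate numbers do not pair the libraries. The procedure was tested on simulated data: for the difference of differences over 24126 simulated models it called 0% of 68 changes of 2-fold, 71.2% of 66 of 4-fold and 93.9% of 66 of 8-fold, with 6 false calls. Replicates differed beyond sampling noise in each group, with ratios of chi-square to its degrees of freedom between 33.9 and 157. The identifiers were not matched to a reference, so neither sequences nor positions are given.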

Additional observations from a re-analysis of the deposited data

Results flagged for a closer look

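The effect of drought differed between day 49 and day 13 by a test of the difference itself for 2849 gene models in the higher and 4611 in the lower direction, and the genes named first in the report are among them. The log2 difference of differences was -18.89 for kiwellin Jcr4S01193.80, -17.98 for the EG45-like Jcr4S00216.20 and -17.75 for the CASP-like Jcr4S03697.20. The CASP-like gene had no read in either severe library, so its fitted value depends on the prior count and is no bound, and with a floor of 3 reads per library the difference was -12.8. Among cysteine proteases it was -17.41 for Jcr4S02201.40, -16.99 for Jcr4S02201.30, -16.42 for Jcr4S00250.20, -16.28 for Jcr4S00250.10, -15.72 for Jcr4S09311.10 and -13.86 for Jcr4S06821.10. It was -15.97 for the glucosyl transferase Jcr4S01054.10, -15.11 for the chitinase Jcr4S00022.40 and -18.24 for the undescribed Jcr4S17467.10.

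In the other direction it was 15.08 for the small heat shock protein Jcr4S02800.20, 14.34 for Jcr4S03340.10, 14.32 for Jcr4S01511.10 and 12.25 for Jcr4S08080.30. Further heat shock models had 12.91 (Jcr4S07181.10) and 12.83 (Jcr4S00560.70). It was 6.82 for the bHLH61-like Jcr4S15742.10. The fitted value of 8.26 for the alcohol dehydrogenase Jcr4S17188.10 rests at 13 days on 3 reads in 1 early control library and 0 in the other 3 libraries, and was 4.98 with the floor. Its call was lost without early control replicate 1 (4.47, adjusted p = 1) and in 5 of the other 7 leave-outs (adjusted p = 0.054 to 0.069). The nodulin family proteins had 4.99 (Jcr4S15472.10) and 4.95 (Jcr4S01891.50). The remaining values were 4.29 for the F-box and WD40 model Jcr4S00114.140, 3.51 for the Skp2-like Jcr4S00911.90, 2.38 for the undescribed Jcr4S00167.150 and 2.27 for the leucine-rich repeat model Jcr4S00125.40.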

How the results depend on the processing

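Over 144 named genes and the alternatives tried, 2801 of 2879 pairs of gene and setting kept the direction and call of the difference. Of the other pairs 78 lost the call and 0 reversed. Many of these genes were named by the size or p of that difference in these same data, which favours such stability. The count does not cover the sign on each day. At 13 days that sign turned without early control replicate 2 for Jcr4S01511.10 and Jcr4S03340.10, as given above. At an adjusted p under 0.01 the calls were 3183 for the difference (839 higher, 2344 lower), 19 for moderate and 6233 for severe drought, 2401 between controls, 7363 between droughts, and 65 down then up. Moderate drought gave 3270 calls with DESeq2 and 4552 with no filter. Higher differences numbered 1731 with library totals, 5404 with RPKM plus 1 and 5299 with RPKM plus 0.1. Up then down genes numbered 477 and 574 on those RPKM scales, 649 with the day 13 control for both days and 3440 by sign alone. Down then up genes numbered 40, 70, 114 and 2057 in the same order, 417 with no filter and 93 with the stricter filter. Requiring each day's own call, added after seeing the data, left 325 and 7, and leaving out models read almost solely in late controls, also added then, left 1185 and 207. The cause of these shifts was not tested.

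Leaving out 1 library gave 3870 to 9845 calls of the difference, 968 to 4624 higher and 2902 to 5221 lower, 98 to 5558 for moderate drought, 6232 to 13623 for severe drought, 1693 to 10237 between controls and 7681 to 14316 between droughts. It gave 948 to 1326 up then down and 83 to 523 down then up genes. The lowest values came without moderate replicate 1 (98 and 948), severe replicate 2 (7681) or late control replicate 2 (the others), and the highest without early control replicate 1, except 1326 without moderate replicate 2. Same-numbered libraries had correlations of deviations from -0.306 to 0.132 over 6 pairs of groups. The replicate block gave 551 calls for moderate drought, 1232 up then down and 150 down then up genes. In the simulation, with 2 libraries a group, few changed models and a single dispersion of 0.055, no change of 2-fold was called. That setting differs from the real data, where some smaller differences were called. One was 0.78 log2 for Jcr4S00171.110 (edgeR adjusted p = 0.023).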
